A study of Homo sapiens with 3 samples.

Results

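The genes described are 10 Kruppel-like factor (KLF) genes, taken by symbol from a GRCh38 gene table that holds 20037 protein-coding genes: KLF2, KLF4, KLF5, KLF6, KLF7, KLF9, KLF10, KLF11, KLF1 and KLF17. They were described by the accessible chromatin in and around them in hCMEC/D3 cells, an immortalized endothelial line from human brain microvessels that was grown to confluence on collagen. The assay was ATAC-seq, in which the Tn5 transposase cuts and tags open DNA, and 1 ATAC library (replicate 2) was used. Of its 31532245 tags, 22188172 remained after duplicates were dropped. The labels name no treatment, flow or shear exposure, so nothing here compares cells with and without flow. Around the 10 genes, 117 of the 106415 peaks of that library were found within the gene or 50 kb either side. All values come from 1 library, so none has a replicate error, and no p-value was computed. RNA levels of these genes, from 2 further libraries, are not analysed here.

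KLF proteins are zinc finger transcription factors that bind GC-rich DNA, in particular CACCC elements and GC boxes. In vessels, laminar flow acts through the kinases MAP3K3, MAP2K5 and MAPK7 (ERK5) on MEF2 factors, which switch on KLF2 and KLF4. KLF2 and KLF4 in turn raise genes of a quiescent, antithrombotic endothelium such as NOS3 and THBD and lower adhesion and coagulation genes, and the cerebral cavernous malformation proteins KRIT1, CCM2 and PDCD10 hold this pathway back. KLF6 is induced by vascular injury, KLF10 and KLF11 are early targets of TGF-beta, KLF9 responds to glucocorticoid and thyroid hormone, KLF5 is a factor of epithelium and growing smooth muscle, KLF7 of neurons, KLF1 of red cell precursors and KLF17 of the early embryo.

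The sequences below show what lay in front of the start sites that the ATAC peaks did or did not cover. Each is the 250 bases before a start site listed by RefSeq (GRCh38.p14), 5′ to 3′ on the strand of the gene. Capitals mark matches on either strand to the MEF2 consensus, to CACCC, to the GC box GGGCGG or to the GATA element GATAA. KLF2 and KLF4 are shown as the flow-regulated factors, KLF6 for its peak-rich neighbourhood, KLF5 for the one of its start sites that carried a peak, and KLF9 and KLF1 because no peak covered their windows.
KLF2, chr19:16324576-16324825, plus strand: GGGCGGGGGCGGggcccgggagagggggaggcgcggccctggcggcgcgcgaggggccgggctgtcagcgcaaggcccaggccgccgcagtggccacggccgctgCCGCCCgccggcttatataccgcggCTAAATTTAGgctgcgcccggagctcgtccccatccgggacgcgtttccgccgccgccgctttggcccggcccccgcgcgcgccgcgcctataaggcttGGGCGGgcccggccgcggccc
KLF4, chr9:107489770-107490019, minus strand: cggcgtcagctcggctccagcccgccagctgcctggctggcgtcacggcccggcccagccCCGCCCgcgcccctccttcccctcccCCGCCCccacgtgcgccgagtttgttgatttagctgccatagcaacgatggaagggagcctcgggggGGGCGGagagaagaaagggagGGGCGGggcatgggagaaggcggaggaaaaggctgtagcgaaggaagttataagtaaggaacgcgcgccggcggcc
KLF6, chr10:3785210-3785459, minus strand: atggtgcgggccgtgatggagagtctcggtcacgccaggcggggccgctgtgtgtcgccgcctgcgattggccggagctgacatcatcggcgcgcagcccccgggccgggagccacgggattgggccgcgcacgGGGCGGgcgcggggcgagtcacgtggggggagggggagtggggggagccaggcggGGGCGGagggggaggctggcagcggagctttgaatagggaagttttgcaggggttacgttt
KLF5, second start, chr13:73058755-73059004, plus strand: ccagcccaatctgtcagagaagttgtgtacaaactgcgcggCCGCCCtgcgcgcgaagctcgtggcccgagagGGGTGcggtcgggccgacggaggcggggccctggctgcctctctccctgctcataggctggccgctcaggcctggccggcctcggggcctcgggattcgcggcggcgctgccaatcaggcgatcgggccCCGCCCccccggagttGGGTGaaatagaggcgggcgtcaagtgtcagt
KLF9, chr9:70414658-70414907, minus strand: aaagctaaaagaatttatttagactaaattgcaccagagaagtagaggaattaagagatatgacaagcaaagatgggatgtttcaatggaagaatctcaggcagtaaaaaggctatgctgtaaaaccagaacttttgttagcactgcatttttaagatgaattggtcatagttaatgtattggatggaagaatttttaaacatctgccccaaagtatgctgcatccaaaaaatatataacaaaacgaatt
KLF1, chr19:12887202-12887451, minus strand: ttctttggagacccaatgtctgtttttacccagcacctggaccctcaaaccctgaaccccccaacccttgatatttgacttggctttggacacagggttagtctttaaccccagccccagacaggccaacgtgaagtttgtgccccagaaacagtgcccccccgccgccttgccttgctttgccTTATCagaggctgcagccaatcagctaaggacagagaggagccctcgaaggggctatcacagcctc

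The KLF2 window was the only one among 14 windows of 9 KLF genes to hold the MEF2 consensus at positions -120 to -111 relative to the start, while 2.10% of the 22199 windows of protein-coding genes held it. The same window held 4 GC boxes and no CACCC, and its 80.0% G and C exceeded that of 96.0% of the windows. The KLF4 window also held 4 GC boxes, the KLF6 window 2, and the window of the second KLF5 start 2 GC boxes with 2 CACCC elements. A GC box was found in 53.7% and CACCC in 58.4% of the windows of protein-coding genes, so single matches to either are common. The KLF1 window held a GATA element at positions -66 to -62 and no GC box. GATAA was found in 16.8% of windows. At the other extreme of base composition, the KLF9 window had 32.4% G and C and none of the 4 elements. These matches describe letters in a window and say nothing of whether a factor was bound. Other sequences searched were AP-1 (TGANTCA, 5.36% of windows), which no window of these genes held, the cAMP response element (TGACGTCA, 2.01%), found once in front of the second KLF11 start, where it overlaps a CACCC, the TATA box (TATAAA, 9.0%), found once in front of the first KLF5 start, and CCAAT (32.7%). CCAAT was found in the windows of KLF1, KLF5, KLF6, KLF7 and KLF9. The windows richest in single elements were those of the second KLF11 start, with 6 GC boxes, and of KLF17, with 6 CACCC elements and 4 GC boxes.

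**Figure D1:**
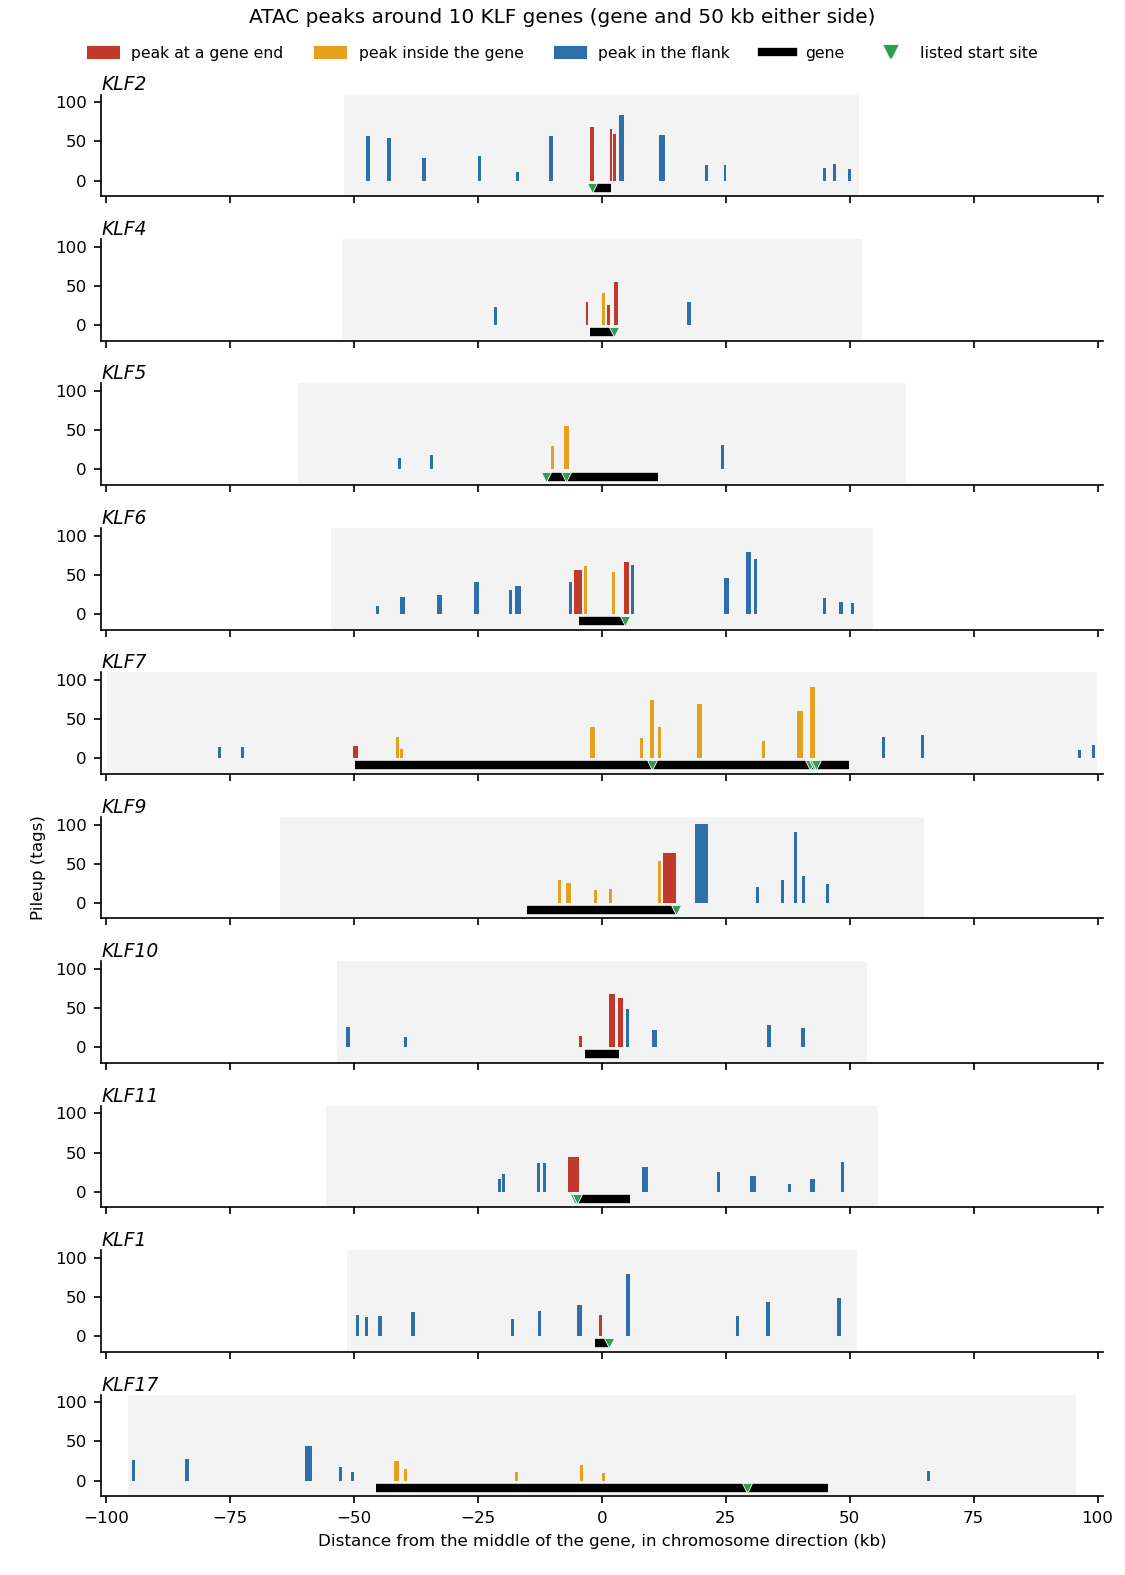
Peaks of the ATAC library around the 10 KLF genes. The horizontal axis is the distance from the middle of the gene in kb, the vertical axis the pileup in tags, the grey area the gene with 50 kb either side, and peaks under 0.6 kb are drawn 0.6 kb wide. KLF6 had 18 peaks and KLF2 had 16, while KLF4 had 6 and KLF5 had 5.

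Peaks were called at an end of 8 of the 10 genes, meaning within 1 kb of either end of the gene as annotated (80.0%, 95% Wilson interval 49.0% to 94.3%). The share over all protein-coding genes was 72.8%, so the count of KLF genes lay near the background. KLF5 and KLF17 had no end peak. The 8 highest end peaks, 1 for each gene, had a median pileup (tags stacked over the peak, as the caller reports it) of 59.3, while the 14595 protein-coding genes that had such a peak gave a median of 45.7. In descending order it was 69.0 for KLF2, 67.6 for KLF10, 66.9 for KLF6, 63.9 for KLF9, 54.7 for KLF4, 44.2 for KLF11, 26.8 for KLF1 and 15.3 for KLF7. More than 1 end peak was found in KLF2, KLF4 and KLF10, with 3 each, and in KLF6, with 2. Thus 4 of 10 genes had at least 2 (40.0%, 95% Wilson interval 16.8% to 68.7%), beside 17.9% of protein-coding genes. Both intervals treat the genes as independent draws, which a family picked by symbol is not, so no conclusion is drawn from them. The count of genes with an end peak depended on the definition: it was 3 with a fold of at least 4 (56.0% of protein-coding genes), 8 with a −log10 q of at least 5 (66.7% of protein-coding genes), 7 with a window of 500 bp (69.2%), 9 with 2500 bp (79.2%) and 7 with an overlap of at least 200 bp (71.5%). Start sites gave a different set of genes. Of the 9 genes with a listed start, 7 had a peak within 1 kb of one, against 74.0% of protein-coding genes with a listed start. KLF5 entered by this rule, and KLF1, whose only end peak lay 1313 bp inside its start, dropped out with KLF17.

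The genes differed widely in how many peaks surrounded them. In descending order the gene with 50 kb either side held 18 peaks for KLF6, 17 for KLF7, 16 for KLF2, 12 each for KLF9 and KLF1, 11 each for KLF11 and KLF17, 9 for KLF10, 6 for KLF4 and 5 for KLF5. With 1 library the order has no error, and neighbours in it cannot be told apart. Windows of KLF7 and KLF17 are the longest, since these genes span 99715 and 91214 bp. Per 100 kb the densities ran from 16.5 peaks for KLF6 and 15.4 for KLF2 down to 5.72 for KLF4 and 4.08 for KLF5, while the median protein-coding gene had 6.37.

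Each gene was then placed among the protein-coding genes whose length was within 25% of its own. By peak number, KLF6 exceeded 97.4% of 2082 such genes and KLF2 exceeded 93.1% of 1224 (ties split evenly). KLF7 stood at percentile 80.2, KLF1 at 78.8, KLF9 at 70.3, KLF11 at 66.9, KLF10 at 55.3 and KLF17 at 53.8. KLF4 and KLF5 stood below the median, at percentiles 33.8 and 23.6. Thus 8 of the 10 genes had more peaks than the median gene of their length, and the median percentile was 68.6. By pileup of the highest end peak the median percentile was 67.9, and it was 26.3 at a fold of at least 4. The percentile by peak number depended on which peaks were assigned to a gene: when flank peaks counted only for the nearest protein-coding gene, its median was 94.97. Under that rule KLF4, with no other protein-coding gene in its window, kept all of its 6 peaks and stood at percentile 95.04. Genes with close neighbours can lose flank peaks by this rule, and KLF1 was left with 1 peak and percentile 41.6. Matching genes also on the number of other protein-coding genes in the window, an alternative chosen after seeing the data, put KLF6 at percentile 99.3, KLF2 at 97.0, KLF10 at 91.3, KLF4 at 70.2, KLF1 at 69.0 and KLF5 at 29.5. The place of KLF6 depended on the peaks counted: at a fold of at least 4 it kept 5 of 18 peaks and stood at percentile 48.8, and with flanks of 100 kb it stood at 83.5. KLF2 stood at 97.1 and 87.1 under those settings.

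**Figure D2:**
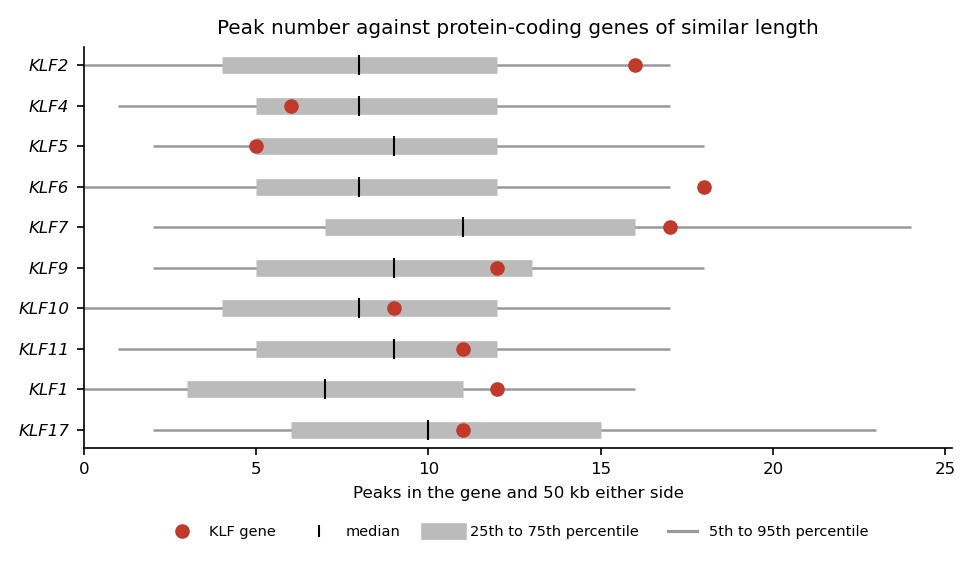
Number of peaks in each KLF gene with 50 kb either side (red points) against protein-coding genes of similar length. Black ticks are medians, grey bars the 25th to 75th and thin lines the 5th to 95th percentiles of the similar genes. KLF6 lies beyond the 95th percentile, and KLF4 and KLF5 lie below the median.

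KLF2, the principal flow-induced factor of endothelium, is a short gene of 3860 bp on chromosome 19 and carried peaks at both ends. The peak over its start, chr19:16324338-16325139, had a pileup of 69.0 and a fold over local background of 3.34, and it covered the whole printed window with the MEF2 consensus. A pair of peaks lay at the far end, chr19:16328425-16328770 with a pileup of 65.9 and a fold of 2.01, and chr19:16329121-16329414 with 60.0 and 1.83. The highest peak of the locus was not at an end: chr19:16330153-16331246, 1468 bp beyond the gene, reached a pileup of 83.5, above 99.0% of all peaks in the library. The fold of that peak was 3.03. Its 3 end peaks put KLF2 above 98.9% of genes of similar length by their number, but none of the 3 had a fold of at least 4.

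Upstream of KLF2, all but the outermost peak lay within 1 kb of KLF2-DT, a long noncoding RNA gene on that side. The nearest of them, chr19:16316090-16316897, 7929 bp before the start, had a pileup of 56.9 and a fold of 7.20. The outermost pair, 44943 and 40648 bp before the start, had pileups of 57.5 and 54.3 and was nearer to AP1M1 than to KLF2. On the other side, the last 5 peaks were nearer to EPS15L1, and their pileups ran from 15.1 to 21.5. In all, 9 of the 16 peaks had KLF2 as their nearest protein-coding gene.

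KLF4, the other flow-induced factor and also a factor of epithelial differentiation, had its peaks concentrated on the gene itself. Its start, on chromosome 9, lay in the peak chr9:107489741-107490469, with a pileup of 54.7 and a fold of 5.34. Inside the gene were chr9:107488371-107488856 with a pileup of 25.8, counted at an end because it lies 913 bp from the start, and chr9:107487536-107487894 with 41.3. A peak of 29.2 tags, chr9:107484177-107484446, lay 406 bp beyond the other end. Only 2 peaks were called in the 100 kb of flank, with pileups of 23.2 and 29.1, so the KLF4 flanks held fewer peaks than those of most genes of its length (percentile 14.5). No other protein-coding gene lay within 50 kb of KLF4, whereas 1 did for KLF2.

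KLF6, which is induced by injury and growth factors, had the largest number of peaks with 50 kb flanks, 18, but not with 100 kb flanks, where it had 24 and KLF7 and KLF1 had 28 each, nor at a fold of at least 4, where it had 5 and KLF7 had 11. The peak over its start, chr10:3784993-3786138, had a pileup of 66.9 and a fold of 2.92, and the peak at its far end, chr10:3774997-3776516, had 56.3 and 2.2. A pair of peaks inside the gene reached 60.6 and 54.0 tags. The highest peaks lay upstream, at chr10:3809723-3810687 with a pileup of 79.5 and chr10:3811215-3811915 with 70.6, which is 24514 and 26006 bp before the start. Their folds were 3.50 and 3.86. Peaks covered 12.5% of the KLF6 window, more than in 98.2% of genes of similar length. All 18 peaks had KLF6 as their nearest protein-coding gene, and no other protein-coding gene lay in the window.

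KLF7, known for its part in axon growth, was a case where the annotated ends missed the main peaks. Its only end peak, at the end far from the starts, had a pileup of 15.3 (chr2:207073746-207074713). The highest peak, chr2:207166028-207167049, lay inside the annotated gene, held 1 of the 4 listed starts, with another 80 bp and another 197 bp away, and reached 90.9 tags, above 99.4% of all peaks. Its fold was 3.65. The remaining start, also internal, lay in chr2:207133792-207134588, with a pileup of 75.0 and a fold of 6.05, and chr2:207143258-207144217 had 69.6 and 7.14. In total 10 of its 17 peaks lay inside the gene, where genes of similar length had a median of 4 (percentile 90.2). KLF7 therefore stood at percentile 24.4 by end pileup and at 98.1 by the pileup at a listed start.

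KLF5 gave the same contrast between ends and starts. The annotated gene begins at a start on chromosome 13 with no peak within 1 kb, and the nearest peak, chr13:73056118-73056483, lay 1142 bp inside it with a pileup of 29.5. The second listed start lay in chr13:73058582-73059717, with a pileup of 56.0 and a fold of 5.91. That peak contains the whole printed KLF5 window, whose G and C content was 70.8%, compared with 40.8% in front of the first start. Its 3 flank peaks had pileups of 14.4, 19.0 and 30.9.

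KLF9 carried the widest and highest peaks of the group. A peak of 2547 bp, chr9:70411989-70414535, with a pileup of 63.9, stopped 122 bp short of the listed start, so the AT-rich window printed above lay outside it. On the other side of the start, 3806 bp away, was a peak of 2650 bp, chr9:70418463-70421112, whose pileup of 100.2 was above 99.8% of all peaks and whose width was above 99.9%. These wide peaks had folds of 2.63 and 3.02, below the median of 4.49 over all peaks. Farther upstream, chr9:70438376-70439094 reached 91.1 tags with a fold of 7.41. Both upstream peaks lie along KLF9-DT, a divergent long noncoding RNA gene. Another 5 peaks lay inside KLF9, with pileups from 16.0 to 53.5. At a fold of at least 4, KLF9 kept 4 of 12 peaks and stood at percentile 29.9 by peak number.

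The TGF-beta-induced genes KLF10 and KLF11 differed in peak height, with KLF10 second by end pileup among the 10 genes and the highest KLF11 peak, at 44.2 tags, below the highest of every other gene. For KLF10, on chromosome 8, a pair of end peaks of 1103 and 1083 bp had pileups of 67.6 and 63.3, and a weaker one at the other end had 14.3. The highest KLF10 peak, chr8:102653724-102654826, was at an end, and 6 flank peaks ran from 12.6 to 48.6 tags. KLF11 had 1 end peak, chr2:10042455-10044545, of 2091 bp, which held both listed starts and reached 44.2 tags. Of the 10 flank peaks of KLF11, the 4 upstream ran from 16.0 to 37.1 tags, and the 6 downstream lay nearer to CYS1.

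KLF1 and KLF17 had no peak at a listed start, where 74.0% of protein-coding genes with a listed start had one. The highest start peaks of KLF5 and KLF7 had 56.0 and 90.9 tags. Whether the lineages in which these factors act relate to their start peaks was not tested. In KLF1 the single peak at an end, chr19:12885342-12885888, had a pileup of 26.8 and a fold of 3.46. The other 11 peaks of its window were nearer to RTBDN, MAST1, DNASE2, GCDH, SYCE2 or FARSA, and the highest, chr19:12890695-12891503 with 79.5 tags, lay within 1 kb of GCDH. Of 8 erythroid genes, 2 had an end peak, where 72.8% of protein-coding genes did: ALAS2 with 14.0 tags and GATA1 with 12.2, while those without one included HBB, HBG1, AHSP and SLC4A1. For KLF17, the nearest peak to the listed start lay 28858 bp away and had 9.21 tags, close to the lowest pileup in the list, 8. The 5 peaks inside the long annotated KLF17 gene ran from 9.21 to 24.5 tags. Its highest flank peak, 44.7 tags, was nearer to SLC6A9. An absent peak means that accessibility was not detectable at this depth and setting.

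**Figure D3:**
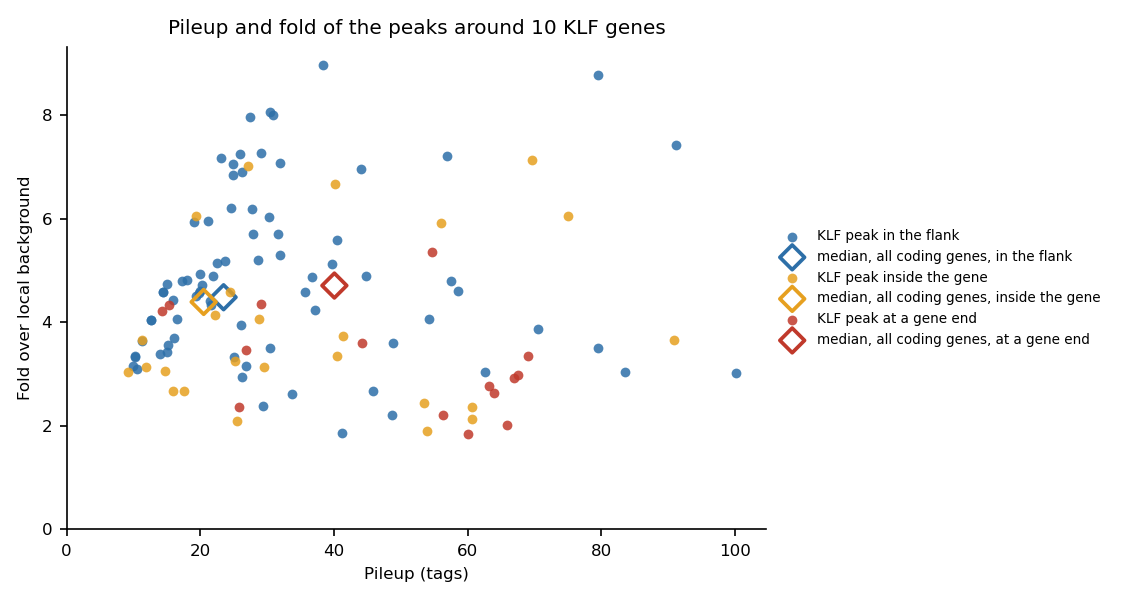
Pileup in tags and fold over local background for the 117 peaks around the KLF genes, coloured by position, with open diamonds for the medians over peaks of all protein-coding genes. The end peaks of KLF genes lie mostly to the right of and below the end-peak median, at a median pileup of 56.3 and a median fold of 2.98.

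The end peaks of the KLF genes were high in pileup and low in fold. Over 15 end peaks the median pileup was 56.3 and the median fold 2.98, compared with 40.1 and 4.71 over the 15869 end peaks of protein-coding genes. The local background implied by pileup and fold had a median of 20.0 tags at KLF ends and 7.24 at all ends. In KLF2 it reached 32.4 tags and in KLF6 it ran from 22.3 to 25.03 at the ends, where several peaks lay within the 10000 bp that the caller uses for its background; whether neighbouring peaks raised it was not tested. When the fold had to reach 4, an end peak remained in KLF4, KLF7 and KLF10, which is 3 of the 10 genes, against 56.0% of protein-coding genes. In KLF10 it was the weaker peak of 14.3 tags, with a fold of 4.21, while the peaks of 67.6 and 63.3 tags had folds of 2.98 and 2.77. Peaks inside the KLF genes differed in the same direction, with a median pileup of 28.8 and fold of 3.34, beside 20.5 and 4.39 inside protein-coding genes. Flank peaks differed less, with a median fold of 4.60 around KLF genes and 4.48 around protein-coding genes. Of the 117 peaks, 14 (12.0%) had a pileup above that of 95% of all peaks, and they belonged to the neighbourhoods of KLF2, KLF6, KLF7, KLF9, KLF10 and KLF1.

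The list for the pathway that leads to KLF2 and KLF4 also holds the cerebral cavernous malformation genes, which hold that pathway back. End peaks were found in 18 of its 19 genes (94.7%, against the 72.8% of protein-coding genes), with a median pileup of 51.2 beside 45.7. At a fold of at least 4 the count was 10 of 19, near the 56.0% of protein-coding genes, so the excess was not kept. MAPK7, which encodes ERK5, had the highest, at 115 tags with a fold of 6.94 (chr17:19377552-19378738). It was followed by PDCD10, one of the genes that hold the pathway back, with 98.8 tags and MAP3K3, the kinase at the top of the cascade, with 88.7. The lowest was MAP2K5, the kinase that activates ERK5, at 29.5. MEF2C had no peak at an end and 68.0 tags at a listed start within the gene. The share of protein-coding genes with a peak at either an end or a start was not computed, so MEF2C was left uncounted.

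Genes known to be raised by flow or by KLF2 and KLF4 had end peaks in 10 of 12 cases, with a median pileup of 41.3. The antioxidant genes NQO1 and NFE2L2 were highest, with 88.8 and 69.9 tags, and THBD, which encodes thrombomodulin, had 56.3 (chr20:23048421-23051319). CYP1A1 was lowest with 16.5. The water channel gene AQP1 and the connexin gene GJA4 had no end peak. NOS3, which encodes endothelial nitric oxide synthase and is named here after its values were seen, had an end peak of 25.9 tags and a peak of 52.5 tags at a listed start.

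Genes listed here as lowered by laminar flow had end peaks in 8 of 10 cases, with a median pileup of 43.0. Their direction under flow was not measured, and it may not hold for every gene of the list. The YAP target CCN2 had 104 tags, but at a fold of 1.96. CXCL8, a neutrophil chemokine, had 49.8 tags at a fold of 5.53. F3, tissue factor, had the lowest pileup, 28.6, at a fold of 4.25. The leukocyte adhesion genes VCAM1 and SELE had none, although each had 1 peak inside the gene, and ICAM1, another adhesion gene, named after its values were seen, had 40.4 tags. With a window of 2500 bp all 10 genes of this list had an end peak, beside 79.2% of protein-coding genes. Shares in the raised and lowered lists, 83.3% and 80.0%, were both near the 72.8% of all protein-coding genes. At a fold of at least 4 the counts were 4 of 12 and 2 of 10, below the 56.0% of protein-coding genes.

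Of the 8 remaining KLF genes examined, an end peak was found in 5 (62.5%, against 72.8% of protein-coding genes), with pileups of 67.3 for KLF13, 55.4 for KLF3 and 50.03 for KLF16, and the lowest, 11.7, for KLF8 on the X chromosome. KLF12, KLF14 and KLF18 had none, and KLF12 had 49.6 tags at a listed start within the gene. KLF18 lies in the window of KLF17, and neither had a peak at an end or a listed start. All 10 endothelial markers examined had an end peak, against 72.8% of protein-coding genes, and their median pileup of 35.0 was below the 45.7 of protein-coding genes. They were led by CDH5 with 62.7, CLDN5 with 51.0 and PECAM1 with 46.8, and EMCN was lowest with 10.01. The end rule can miss a higher peak at a start: ERG, named after its values were seen, had 11.0 tags at an end and 52.8 at a listed start. PECAM1, CDH5 and KDR, the last named only for this overlap, also stand in the pathway list, so the shares of these lists are not separate. An end peak is a weak check of the cell label, since most protein-coding genes had one.

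**Figure D4:**
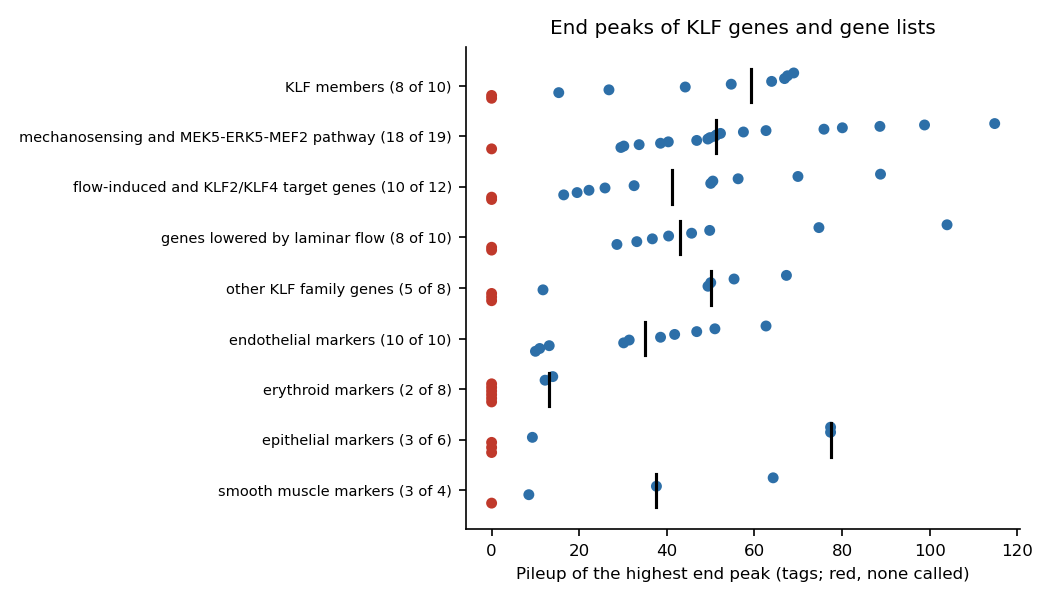
Pileup in tags of the highest end peak of each gene, for the 10 KLF genes and 8 gene lists. Each point is a gene, red points at 0 are genes without an end peak, and black lines are medians over genes with one. The KLF genes spread from 15.3 to 69.0 tags, and 6 of 8 erythroid markers had no end peak.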

How the data were processed

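The authors deposited 1 broad peak list for the ATAC library, made with MACS 2.2.7.1 without a control, per the file headers. Per the file headers, tags were shifted by -100 bp and extended to 200 bp, 22188172 of 31532245 tags remained at 1 per position, the q limits were 0.05 and 0.1, and the effective genome size was 1870000000 bp, the mouse preset, which sets the lowest background and so the fold and q of weak peaks. The deposited columns used were the pileup signal, the fold enrichment ratio, the −log10 q-value and the peak length; the fold and q of a peak are the authors' values. The submitters' processing notes name the builds GRCh38 and mm10 without saying which file used which. Peaks lay at ends of protein-coding genes of a RefSeq GRCh38.p14 table in 14.9% of cases as listed and in at most 7.34% after moving all peaks by 2000 bp or more, so the table was used for positions.

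A peak at a gene end overlapped the 1 kb either side of either end by at least 1 bp, other peaks were inside the gene or in the 50 kb flanks. Start sites and sequences came from the RefSeq promoter table, with 9 of 10 genes matched. Local background was computed as (pileup + 1)/fold − 1, which is approximate for broad peaks. Gene coordinates were taken without exons, so introns and exons could not be separated. Placement was tested on simulated data. Python 3.11.15, pandas 2.3.3 and matplotlib 3.10.9 were used. The genes and lists were chosen with earlier results of these data known. Genes named in a list are the 3 with the highest end pileup, the lowest and those without an end peak; other names are marked, and a few genes that the rule names are not reported here. Alternatives were peak filters, window, overlap, flank and length match. The RNA tables were not used, because the reference tables do not link their transcripts to genes. Depth limits every absence: the lowest pileup listed was 8 tags, and no replicate gives an error.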

Additional observations from a re-analysis of the deposited data

How the results depend on the processing

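The match on neighbouring genes was chosen after seeing the data. Of the alternative values for the main counts and medians, 34 stayed within 1.5 times the reported count or 10 percentile points and 13 moved; the cause was not tested beyond the number of peaks that entered. A fold of at least 4 lowered most: end peaks were found in 3 of 10 KLF genes, 10 of 19 pathway genes, 4 of 12 flow-raised genes, 2 of 10 flow-lowered genes and 3 of 8 other KLF genes, against 56.0% of protein-coding genes, the median number of peaks per KLF gene fell from 11.5 to 6, and the median percentiles became 56.1 for peak number and 26.3 for end pileup (68.6 and 67.9 as reported). The median number of peaks was 23.5 with flanks of 100 kb and 7 with flank peaks nearest to the gene only, at median percentiles of 82.0 and 94.97. Matching genes also on the number of neighbouring protein-coding genes gave 81.1. No paired analysis was possible because a single ATAC library was used and the RNA and ATAC groups share 1 replicate number. The planned RNA levels were not run.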

Other observations

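Markers of other cell types were measured in the same way, beside an end peak in 72.8% of protein-coding genes. Of 6 epithelial genes, 3 had an end peak: KRT8 and KRT18 share 1 peak of 77.4 tags (chr12:52949693-52950144), and EPCAM had 9.31. CDH1, ESRP1 and GRHL2 had none, although GRHL2 had 16 peaks inside the gene. Of 4 smooth muscle genes, 3 had an end peak (75.0%, near that share), with 64.3 tags at TAGLN, 37.6 at ACTA2 and 8.50 at MYH11, and CNN1 had none.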
